A study of Homo sapiens with 8 samples.

Results

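The transcripts described here encode the proteins of the cytosolic ribosome, the particle that translates messenger RNA. Members were the rows of the 8 deposited tables whose symbol follows the RPL or RPS naming pattern, or is RPLP0, RPLP1, RPLP2 or RPSA, and whose mean over the 8 libraries was at least 1 FPKM, a level that divides the fragments of a gene by its transcript length and by the fragments sequenced in the library. The pattern matched 86 symbols, of which 83 reached the level, out of 26485 symbols in each table. They comprised 50 genes of the large subunit and 33 of the small subunit. The 3 symbols left out were RPL10L, at 0 to 0.00567 FPKM, RPL3L, at 0.0371 FPKM in 1 library and listed at 0 in the others, and RPS4Y2, listed at 0 in all 8. The lowest member, RPL22L1, was at a mean of 6.97 FPKM, so no gene lay close to the limit on either side.

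The study stimulated BEAS-2b cells with an extract of house dust mite (HDM), an airborne allergen source, after siRNA against MD-2 or control siRNA. MD-2 is the lipopolysaccharide-binding partner of TLR4 that the gene LY96 encodes. BEAS-2b is an immortalised human bronchial epithelial cell line. Cells received control or LY96 siRNA, were changed from BEGM to BEBM medium 24 h before stimulation, were given PBS (the vehicle) or HDM extract, and were harvested 24 h later. The 4 groups were control siRNA with PBS (1 library), control siRNA with HDM (3 libraries), LY96 siRNA with PBS (1 library) and LY96 siRNA with HDM (3 libraries). All groups are of 1 cell line, and each siRNA is given by its target alone. Whether the 3 libraries of an HDM group were separate cultures is not given in the labels, and p-values here reflect the spread of these libraries, which may be technical.

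LY96 itself was listed at 0 FPKM in all 8 libraries, control siRNA included, so its depletion could not be checked and the siRNA groups are named by their labels. FPKM totals ranged from 329777 to 340328, and read depth is unknown. All 8 epithelial markers were present, with a summed level of 1298 to 1344 FPKM in the control siRNA HDM libraries and 1176 to 1240 in those with LY96 siRNA and HDM. The PBS libraries were at 1347 (control siRNA) and 1359 (LY96 siRNA). The markers did not move together: with LY96 siRNA under HDM 1 was higher and 3 lower at adjusted p below 0.05 in limma. Their log2 differences ran from -0.66 to 0.49. Of 5 leukocyte markers PTPRC and CD3E were listed at 0 in all libraries, while CD14 was at 3.44 to 5.39 FPKM and higher with HDM over both siRNAs (log2 0.38, adjusted p = 0.0132 in limma). Of 4 endothelial markers PECAM1 was listed at 0 in all libraries and VWF reached 0.316 FPKM. The fibroblast genes DCN and LUM were also listed at 0 in all. The 5 fibroblast markers summed to 5.73 to 6.11 FPKM with control siRNA under HDM, against 7.29 to 9.46 with LY96 siRNA, nearly all of it COL1A1. The part of cells with these markers in the values given here was not tested. In bulk RNA, fewer cells of a type and less RNA per cell cannot be told apart.

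The small ribosomal subunit binds messenger RNA and holds the decoding centre, and the large subunit joins amino acids and carries the exit tunnel for the new chain. Each subunit is built in the nucleolus on ribosomal RNA, and the proteins are needed in nearly equal numbers. Most of their messenger RNAs begin with a 5′ terminal oligopyrimidine (TOP) tract, a cytidine followed by a run of pyrimidines at the cap. Through this tract the kinase mTOR and the RNA-binding protein LARP1 set their translation and stability together, along with that of elongation factor messages. Airway epithelial cells, like other growing cells, spend a large part of their messenger RNA on this family.

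The start windows below are shown because the tract at the cap is the element that these genes have in common. Members with and without it at the annotated start used here also occur among those called in both directions further on. Each is the 15 bases before and the 15 bases from the annotated start, 5′ to 3′ on the gene's own strand, from RefSeq on GRCh38.p14, and capitals mark the unbroken run of pyrimidines that begins at the start.
RPS6 (chr9:19380222-19380251, minus strand): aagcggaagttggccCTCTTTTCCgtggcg
RPS24 (chr10:78033848-78033877, plus strand): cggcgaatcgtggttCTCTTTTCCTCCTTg
RPS3 (chr11:75399503-75399532, plus strand): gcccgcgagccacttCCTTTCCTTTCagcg
RPS16 (chr19:39435935-39435964, minus strand): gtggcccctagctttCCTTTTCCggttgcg
RPLP0 (chr12:120201097-120201126, minus strand): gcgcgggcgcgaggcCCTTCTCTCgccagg
RPS19 (chr19:41860240-41860269, plus strand): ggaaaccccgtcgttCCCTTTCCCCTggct
RPL36 (chr19:5690280-5690309, plus strand): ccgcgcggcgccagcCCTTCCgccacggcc
RPL35A (chr3:197950175-197950204, plus strand): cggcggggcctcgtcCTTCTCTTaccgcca
RPL28 (chr19:55385917-55385946, plus strand): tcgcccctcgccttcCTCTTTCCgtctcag
RPL10 (chrX:154398050-154398079, plus strand): tttttccactctcagaaatatacgtctgtc
RPL26L1 (chr5:172958714-172958743, plus strand): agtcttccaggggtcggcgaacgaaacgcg
The first 5 of these genes were among the members called higher with LY96 siRNA under HDM, and RPS19, RPL36, RPL35A and RPL28 among those called lower. RPL10, called higher, and RPL26L1, called lower, have no such run at the RefSeq start used here. Other starts of these genes were not searched.

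Of the 83 members, 67 had a RefSeq promoter entry. A tract of at least 5 bases, starting with C at the annotated start, was present in 44 of the 67 (65.7%), against 4.04% of all 27305 promoters of the same length in the table and 5.07% of those of the 9243 other genes tested. The start was that of the first RefSeq entry listed for each gene. With the tract allowed to begin up to 5 bases to either side, it was present in 52 of the 67 (77.6%). The shares were then 21.1% of all promoters and 22.7% of those of other genes tested. At the start itself, the tract occurred in 26 of 41 large and 18 of 26 small subunit genes. Among called members it occurred in 6 of the 9 higher and 4 of the 5 lower genes with an entry, and in 34 of the 53 that were not called. No test of the differences between these counts was made. Searched on both strands of the 300 bases around the start, CCGGAAG was present in 34.3% of member promoters and ATGGCG in 35.8%, against 10.7% and 11% of all promoters in the table and 20% and 18.8% of those of other tested genes; a promoter could hold both. These are matches of letters, not bound sites.

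Ribosomal protein transcripts were among the most abundant in every group. Of the 83 members, 63 were among the 100 genes of highest mean FPKM and 77 had a mean of at least 100 FPKM. The highest small subunit members were RPS18 at a mean of 1421 FPKM (rank 7 of all genes), RPS14 at 1079 and RPS6 at 1074. The highest large subunit members were RPL8 at 1410.3, the stalk protein gene RPLP1 at 1161 and RPL37A at 1019. Only 5 members lay under 60 FPKM, and all 5 are paralogues of a far more abundant member: RPL22L1, RPL39L (25.7), RPS27L (32.1), RPL7L1 (40.9) and RPL26L1 (51.1). The next lowest small subunit members were RPS26 at 158 and RPS23 at 183 FPKM. Replicate libraries agreed closely, with a median coefficient of variation over members of 2.06% in the control siRNA HDM group and 2.87% in the LY96 siRNA HDM group. The widest were RPL31 with control siRNA (9.65%) and RPS26 with LY96 siRNA (7.75%).

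**Figure D1:**
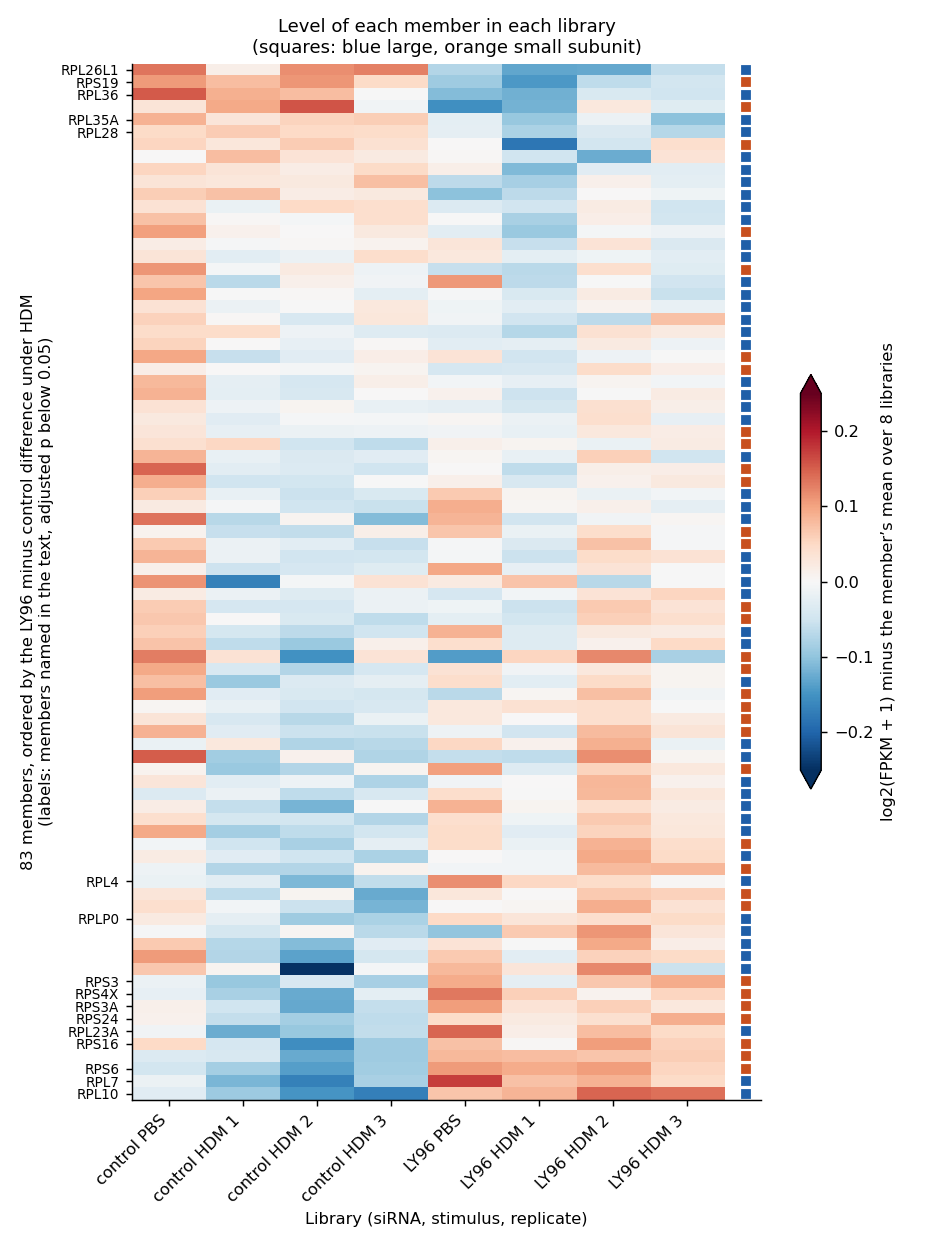
Each row is 1 of the 83 members and each column 1 library; colour gives log2(FPKM + 1) minus the member's mean over the 8 libraries, and the squares mark the subunit. Rows run from the largest decrease (RPL26L1, -0.19) to the largest increase (RPL10, 0.26) with LY96 siRNA under HDM, and labels name called members that the text describes.

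The family took its smallest part of the FPKM total under HDM with control siRNA. Its summed share was 14.9% with control siRNA and PBS and 15.1% with LY96 siRNA and PBS. Under HDM it was 14.3%, 14.1% and 14.3% in the control siRNA libraries (14.2 ± 0.113, SD, n = 3), while the LY96 siRNA libraries had 14.6%, 14.8% and 14.7% (14.7 ± 0.110). Every control siRNA HDM library was thus below every LY96 siRNA HDM library, and both PBS libraries were above all HDM libraries. The 4 ribosomal RNA rows also moved with the siRNA, taking 0.862%, 0.498% and 0.591% under HDM with control siRNA but 1.07%, 1.07% and 1.36% with LY96 siRNA (0.797% and 0.863% under PBS). Their part in the values given here was not tested. With those rows removed from the total, the HDM shares were 14.3 ± 0.135% (control siRNA) and 14.9 ± 0.111% (LY96 siRNA). Removing rows that are higher with LY96 siRNA can only widen this gap, so these shares do not bear on that part.

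The balance of the subunits differed slightly between the HDM groups. Summed large subunit FPKM over summed small subunit FPKM was 1.37, 1.38 and 1.37 in the control siRNA HDM libraries (1.373 ± 0.00523, SD, n = 3). The LY96 siRNA HDM libraries were at 1.35, 1.35 and 1.34 (1.345 ± 0.00424), and the PBS libraries at 1.365 (control siRNA) and 1.368 (LY96 siRNA). The LY96 siRNA HDM libraries were therefore the 3 lowest of the 8, and this ratio within a library does not depend on its total. Summed small subunit FPKM went from 20101 ± 197 to 21036 ± 461 and summed large subunit FPKM from 27601 ± 170 to 28288 ± 641. The ratio kept its ordering without the 3 most abundant members of each subunit (1.447 ± 0.00497 and 1.418 ± 0.00674), but the ratio of the median levels overlapped between the groups (0.958 ± 0.0340 and 0.972 ± 0.0451). No test was made of these sums, since the members had been chosen with earlier results known.

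**Figure D2:**
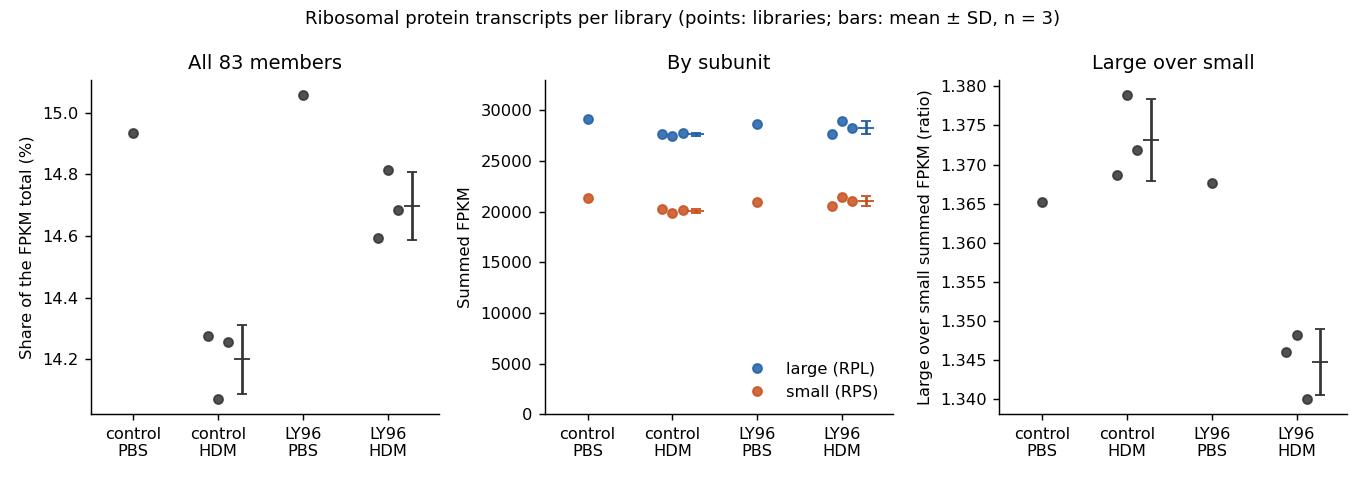
Share of the FPKM total taken by the 83 members (left, %), summed FPKM of each subunit (middle) and large over small subunit ratio (right), with 1 point per library and mean ± SD for groups of 3. Under HDM the mean share was 14.2% (control siRNA) against 14.7% (LY96 siRNA), and the ratio 1.373 against 1.345, without overlap of the 3 libraries a side; the axes at left and right do not start at 0.

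Under HDM, 17 of the 83 members differed between LY96 and control siRNA, 12 higher and 5 lower with LY96 siRNA, all by small amounts (3 libraries against 3). Differences are on the log2(FPKM + 1) scale, and a member is called where limma gave an adjusted p below 0.05 (Benjamini-Hochberg, all 12598 genes tested). Members called higher were 14.5% of the family, against 6.68% of all genes tested. Members called lower were 6.02%, against 8.92%. Of the small subunit genes 7 of 33 were higher and 1 lower, with a median difference over the subunit of 0.06. Of the large subunit genes 5 of 50 were higher and 4 lower, with a median of 0.04, and the median over all genes tested was -0.02. All members lay between log2 -0.19 and 0.26.

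The largest rise was that of RPL10 (chromosome X, 154389955 to 154409168, GENCODE v29 on GRCh38), a late-joining protein next to the peptidyl transferase centre. It was at 367, 353 and 348 FPKM in the control siRNA HDM libraries, against 415, 433 and 431 with LY96 siRNA, a 1.20-fold ratio of means. The groups were clearly apart (log2 0.26 ± 0.03 SE, adjusted p = 0.0011). RPS6 (chromosome 9, 19375715 to 19380254), the small subunit protein phosphorylated by the S6 kinases, was at 1009.9, 974 and 1009 FPKM under control siRNA, against 1144, 1151 and 1112 under LY96 siRNA, which is 1.14-fold (log2 0.19 ± 0.03 SE, adjusted p = 0.00258). It was the small subunit member with the largest rise, and its libraries did not overlap.

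Among other small subunit genes, RPS16 was at 983, 909 and 951 FPKM against 1014, 1089 and 1053 (log2 0.15 ± 0.04 SE, adjusted p = 0.025). RPS24, a Diamond-Blackfan anaemia gene, was at 654, 643 and 652 FPKM against 693, 701 and 726 (log2 0.12 ± 0.03 SE, adjusted p = 0.0155). In both the lowest LY96 siRNA library was above the highest control siRNA library. RPS3A (log2 0.12, adjusted p = 0.0227), the X-linked RPS4X (log2 0.12, adjusted p = 0.0361) and RPS3, a protein of the messenger RNA entry channel (log2 0.12, adjusted p = 0.0479), were called higher as well. RPS3 stood nearest to the threshold on this side.

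In the large subunit, RPL7 was at 662, 637 and 677 FPKM under control siRNA, against 754, 761 and 741 under LY96 siRNA (log2 0.19 ± 0.03 SE, adjusted p = 0.0034). RPL23A, which sits at the mouth of the exit tunnel, was at 454, 463 and 474 FPKM against 501, 523 and 512 (log2 0.14 ± 0.03 SE, adjusted p = 0.0109). Both had groups that were fully separate. RPLP0, the base of the stalk that recruits elongation factors, went from 778 ± 19.3 to 836 ± 4.92 FPKM (mean ± SD of 3; log2 0.10 ± 0.03 SE, adjusted p = 0.0259). RPL4, whose long loop lines the exit tunnel, went from 847 ± 25.6 to 908 ± 16.5 FPKM (mean ± SD of 3; log2 0.10 ± 0.03 SE, adjusted p = 0.045). RPL4 was also close to the threshold.

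The 5 members that fell were RPL26L1, RPL36, RPL35A and RPL28 of the large and RPS19 of the small subunit. RPL26L1 (chromosome 5), a low-abundance paralogue of RPL26, was at 51.5, 55.3 and 55.7 FPKM under control siRNA, against 46.5, 46.5 and 48.8 under LY96 siRNA (log2 -0.19 ± 0.04 SE, adjusted p = 0.0138). RPS19 (chromosome 19, 41859918 to 41872926), the most often mutated Diamond-Blackfan anaemia gene, needed for the maturation of small subunit ribosomal RNA, was at 466, 476 and 456 FPKM against 399, 422 and 428 (log2 -0.16 ± 0.03 SE, adjusted p = 0.0115). In both, every LY96 siRNA library was below every control siRNA library. RPL36 was at 461 ± 15.5 and 423 ± 13.0 FPKM, RPL35A, another Diamond-Blackfan anaemia gene, at 533 ± 6.10 and 490.0 ± 16.5, and RPL28 at 123 ± 0.852 and 113 ± 1.84 (SD, n = 3 each). Their differences were log2 -0.13 (adjusted p = 0.0385), -0.12 (adjusted p = 0.0266) and -0.11 (adjusted p = 0.0228).

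The following members were not called. RPL5 (log2 0.08, adjusted p = 0.118) and RPL11 (0.01, adjusted p = 0.822) form the 5S particle that can bind the p53 regulator MDM2. The stalk proteins RPLP1 and RPLP2 had log2 differences of 0.05 (adjusted p = 0.215) and -0.02 (adjusted p = 0.632), and RPL12 at the stalk base 0.05 (adjusted p = 0.23). RPSA, also known as the laminin receptor, had 0.06 (adjusted p = 0.119), and RPS27A, made as a fusion with ubiquitin, 0.02 (adjusted p = 0.667). The abundant RPS18, RPS14, RPL8 and RPL37A were at 0.06, -0.05, 0.10 and -0.09 (adjusted p = 0.103, 0.267, 0.058 and 0.0636).

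Counted by overlap rather than by the test, 31 members had every LY96 siRNA HDM library above every control siRNA HDM library and 9 had every one below, against 15.2% and 21.8% of all genes tested, and 43 overlapped. The count of calls changed when single libraries were left out. Without control HDM replicate 2 it was 6 higher and 1 lower. Without LY96 HDM replicate 2 it was 7 and 5, and without LY96 HDM replicate 3 it was 5 and 2. Leaving out LY96 HDM replicate 1, control HDM replicate 1 or control HDM replicate 3 left 2 lower in each case. Higher calls with 1 HDM library left out ran from below to above the reported count, with the range given in the last section. The count was 1 and 0 without the filter on low values and 4 and 1 in limma without the variance trend and robust moderation. The shares of all genes called in these fits are not given here. Whether the changes are particular to the members was not tested. RPL10 kept its call in all 20 alternatives, RPL7 and RPS6 lost theirs in 1, RPL23A and RPS19 in 2, RPL26L1 in 3, and 10 called members lost theirs in 6 to 10, with adjusted p up to 0.257.

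The single PBS libraries, which share no library with the HDM comparison, differed between siRNAs in the same direction for every called member. All 12 members higher under HDM were also higher in the LY96 siRNA PBS library than in the control siRNA PBS library, with a median log2 difference of 0.11 and a range from 0.02 (RPS16) to 0.19 (RPL7). All 5 lower members were lower there, with a median of -0.20 and RPL36 at -0.26. Of the 66 uncalled members, 16 were higher and 50 lower. The same holds for most genes: 728 of the 842 genes higher under HDM and 1024 of the 1124 lower ones kept their direction under PBS. Over the 83 members the difference under HDM and that under PBS had Pearson r = 0.636 and Spearman rho = 0.613, and over all 12598 genes r = 0.400 and rho = 0.466. These correlations are across genes, which share their libraries and are not independent replicates, and a PBS difference rests on 1 library a side, with no replicate check.

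**Figure D3:**
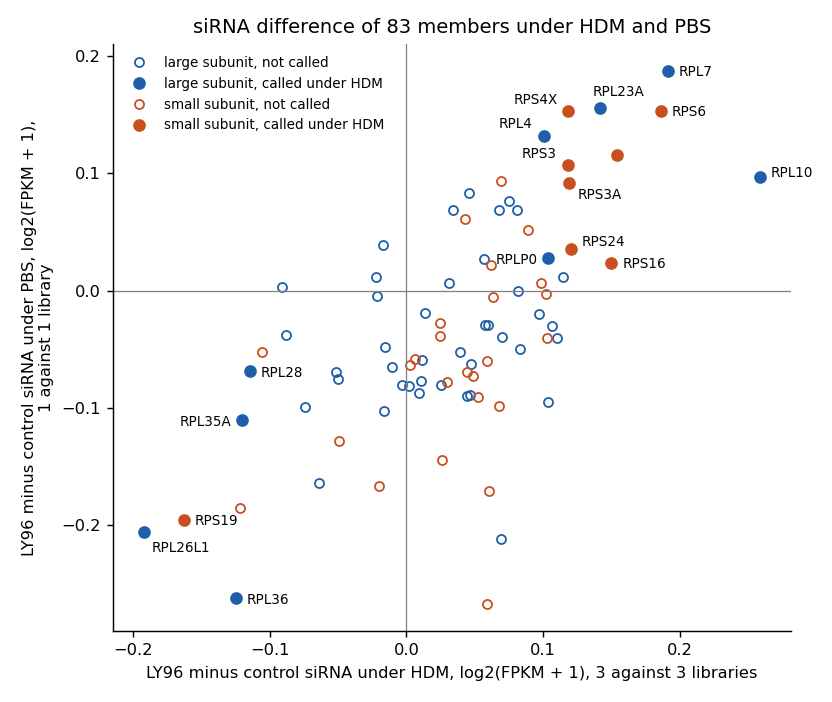
Each point is a member, with the LY96 minus control siRNA difference under HDM (x axis, 3 against 3 libraries) and under PBS (y axis, 1 against 1 library), both in log2(FPKM + 1). The 12 members called higher under HDM lie in the upper right quadrant and the 5 called lower in the lower left; most open points lie below 0 on the PBS axis. Under HDM, among the 83 members RPL10 is farthest right (0.26) and RPL26L1 farthest left (-0.19).

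HDM lowered 3 large subunit members averaged over both siRNAs and raised none, out of 12604 genes tested. The 3 are 3.61% of members, against 3.5% of all genes called lower and 4.86% called higher, so their share is near the background in the deposited values. Under 5 of the 7 other scalings 11 to 15 members were lower, against 3.92% to 4.49% of all genes. Under control siRNA RPL21 was at 612 FPKM with PBS, against 530.5, 559 and 516 FPKM with HDM. Under LY96 siRNA it was at 589.9 with PBS and 538, 553 and 558 with HDM (log2 -0.15 ± 0.03 SE, adjusted p = 0.027). All HDM libraries were below the PBS library of their siRNA. RPL14 went from 538 to 505 ± 14.7 FPKM with control siRNA and from 553 to 499 ± 11.8 with LY96 siRNA (log2 -0.12 ± 0.03 SE, adjusted p = 0.0447). RPL6 went from 663 to 613 ± 4.79 and from 676 to 638 ± 13.7 (log2 -0.10 ± 0.02 SE, adjusted p = 0.0431). These means have n = 3 for HDM and 1 library for PBS, so the test takes PBS libraries to vary as HDM libraries do.

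Below the threshold most members lay on the lower side with HDM. Over both siRNAs 75 of 83 members had a negative difference, with a median of log2 -0.05 for the large and -0.04 for the small subunit, and 0.01 over all genes. With control siRNA, 68 members had all 3 HDM libraries below the PBS library and 1 had them all above, against 29.2% and 33.8% of all genes. With LY96 siRNA the numbers were 23 and 11, against 27.7% and 33.4%. For control and LY96 siRNA in that order, the large subunit median was log2 -0.07 and -0.02 as deposited, but -0.0884 and -0.0856 by upper quartile, -0.0391 and -0.034 by quantile, and 0.04 and -0.06 by member centring, which turns the order of the siRNAs around. In limma no member was called within either siRNA, where 1.55% (higher) and 0.738% (lower) of all genes were called with control siRNA and 2.91% and 1.98% with LY96 siRNA. At an unadjusted p under 0.05, 28 members were lower and 0 higher with control siRNA, against 6.73% and 9.45% of all genes, and 6 and 2 with LY96 siRNA, against 7.28% and 9.39%; limma without trend and robust moderation also called 0 in both. Each HDM effect rests on a single PBS library. Of the 3 calls over both siRNAs, 0 remained without control HDM replicate 1, 1 without control HDM replicate 2, control HDM replicate 3 or LY96 HDM replicate 3, and 0 without the low-value filter or without the trend and robust moderation; in 19 alternatives RPL21 lost its call in 4 and RPL14 and RPL6 in 8 each.

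The difference in HDM effect between the siRNAs (LY96 minus control) was called for 0 members in limma, against 0.0555% of all genes called higher and 0% called lower. At an unadjusted p under 0.05, 9 members were higher and 0 lower, against 4.15% and 3.44% of all genes, and limma without trend and robust moderation called 0 as well. The median difference was log2 0.07 for each subunit. RPS29 had the smallest adjusted p among 8 members whose 2 HDM groups lay on opposite sides of their PBS library. It was at 561 FPKM with PBS and 512, 509 and 507 FPKM with HDM under control siRNA, and at 499 and 524, 550.0 and 519 under LY96 siRNA (difference of log2 0.23, adjusted p = 0.335). The PBS libraries of the 2 siRNAs themselves differed by log2 -0.17, against HDM differences of -0.14 with control and 0.09 with LY96 siRNA.

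The number of members called changed with the scaling of the libraries. For LY96 siRNA under HDM, the deposited FPKM gave 12 higher and 5 lower, with 6.68% and 8.92% of all genes. Scaling each library to a common total gave 22 and 6 (7.08% and 8.87% of all genes), and scaling to the total without the members 24 and 6 (7.6% and 8.04%). Median-ratio factors gave 28 and 4 (8.57% and 6.91%), TMM factors 28 and 4 (8.51% and 6.87%), and upper-quartile scaling 20 and 2 (6.63% and 4.76%). Quantile normalization gave 10 and 8 (7.85% and 7.59%), and centring each library on the members' own median 5 and 10 (4.33% and 16.4%). The calls over all genes thus moved with the scaling as well. Among members alone, higher calls were 33.3% of the calls under member centring, 55.6% under quantile normalization and 70.6% as deposited. They were 78.6% and 80% under the totals, 87.5% under median-ratio or TMM factors and 90.9% under the upper quartile. The shares of all genes called in each direction are those given beside each scaling above.

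Of the 17 called members, 7 kept their call under all 8 scalings. Among these, RPL10 (log2 0.21 to 0.28), RPL7 (0.11 to 0.21), RPS6 (0.10 to 0.21) and RPL23A (0.09 to 0.17) were higher under each, and RPL26L1 (-0.24 to -0.17) and RPS19 (-0.21 to -0.14) lower under each. No member was called in both directions by different scalings, 29 were higher and 11 lower under at least 1, and 43 were called under none. Uncalled abundant members did change sign: after quantile normalization RPS18 was at log2 -0.10, RPL8 at -0.05 and RPLP1 at -0.05. The median of the small subunit stayed above 0 under all 8 scalings (0.01 to 0.08), while that of the large subunit was 0.01 to 0.06 under 7 and -0.01 under member centring. Their difference, small minus large, was 0.02 as deposited and 0.0199 after quantile normalization; the other 6 scalings shift all genes of a library together and leave it nearly fixed by construction.

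With HDM over both siRNAs, no scaling called a member higher. The number lower was 3 as deposited (3.5% of all genes lower), 12 at a common total (3.92%), 15 without the members in the total (4.37%) and 14 by upper quartile (4.49%). It was 11 by median-ratio (4.11%) and by TMM factors (4.1%), 5 by quantile (4.23%) and 0 by member centring (2.57%). RPL21 and RPL14 were lower under 7 of the 8 scalings and RPL6 under 6. Member centring shifts the median of all genes by more than 0.1 for 2 comparisons, to log2 0.11 for HDM with control siRNA and -0.14 for the difference between siRNAs, from 0.01 and 0.0022 as deposited. Relative to the family's own median, the typical gene was therefore higher with HDM under control siRNA.

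**Figure D4:**
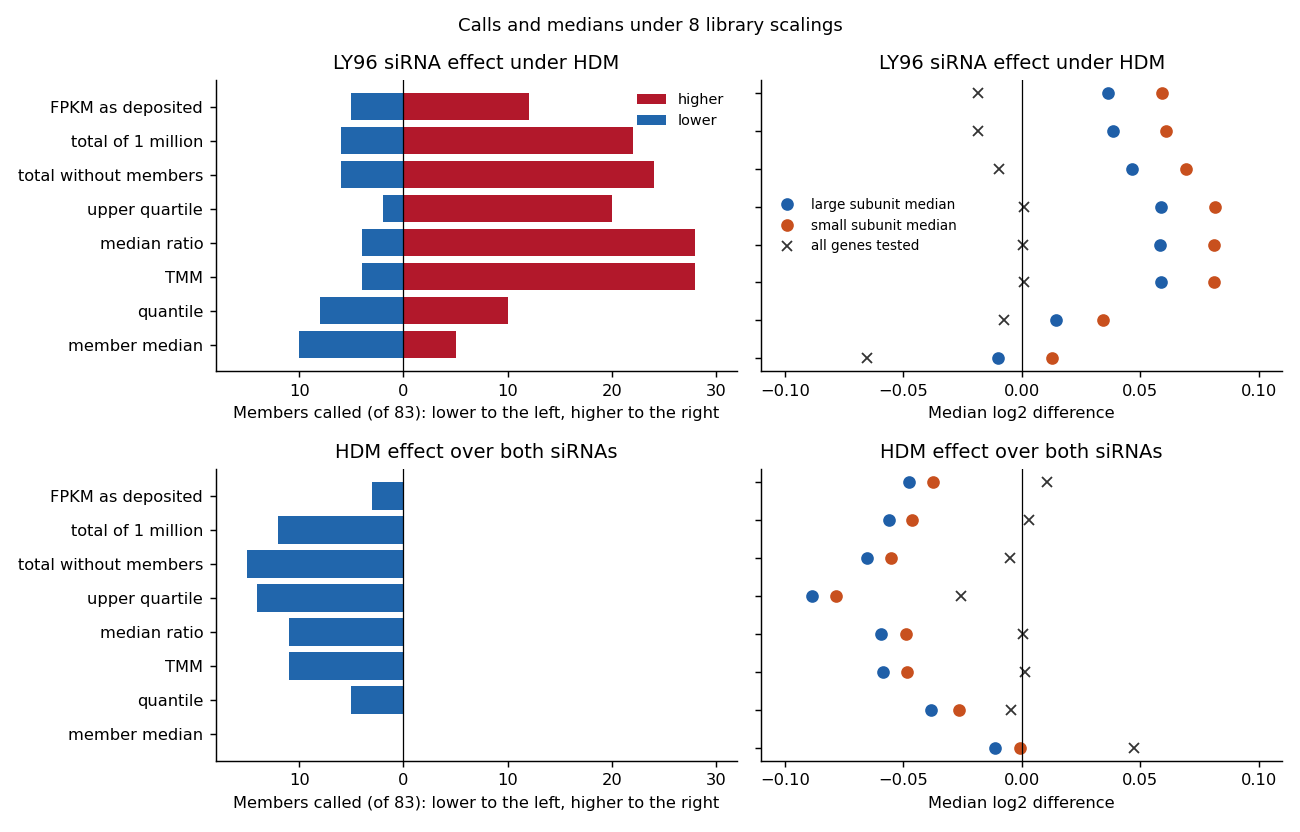
Members called at adjusted p below 0.05 (left) and median log2 difference of each subunit and of all genes (right) under 8 library scalings, for LY96 siRNA under HDM (top) and HDM over both siRNAs (bottom). In the top row higher calls ranged from 5 to 28 and lower calls from 2 to 10; the large subunit median turned to -0.01 under member centring, and the small subunit median lay 0.02 above it, a gap that scaling by 1 factor per library cannot change much. In the bottom row lower calls ranged from 0 to 15, with no higher call.

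Calls with LY96 siRNA under HDM were counted by coding length. Of the 27 members with a coding length of 582 to 1281 bases (GENCODE v29), 9 were called higher and 0 lower, with a median difference of log2 0.08. Of the 28 members of 405 to 576 bases, 2 were higher and 3 lower (median 0.03), and of the 28 of 75 to 399 bases, 1 and 2 (median 0.04). Median coding length was 736.5 bases among members called higher, 411 among those called lower and 448.5 among the others. Across the 83 members, coding length and the difference under HDM had Pearson r = 0.304 and Spearman rho = 0.367, and the difference between the PBS libraries r = 0.463 and rho = 0.503. Over the 11273 genes tested with a transcript, r was 0.0295 and rho 0.033. Other genes within the same length limits had medians of log2 -0.06 (562 short), -0.03 (739 middle) and -0.02 (3770 long). Of these other genes 6.05%, 8.25% and 6.55% were called higher and 19.2%, 11.6% and 9.73% lower, from short to long. Whether call counts of members differ between the length classes was not tested. Transcript length had r = -0.193 and rho = -0.0969 across the 83 members. It had r = -0.408 and rho = -0.243 over the 33 of the small subunit, but r = -0.0501 and rho = 0.032 over the 50 of the large. With the difference between the PBS libraries it had r = 0.119 and rho = 0.155. The transcript was the longest protein-coding one of the best annotation rank, which can far exceed its coding part (RPL14, 7072 against 645 bases). Expression level (log2 of mean FPKM) had r = 0.288 and rho = 0.26 with the siRNA difference under HDM across the 83 members. It had r = 0.539 and rho = 0.388 over the small subunit and r = 0.171 and rho = 0.175 over the large. Over the 11273 genes r was -0.00547 and rho -0.021. These are descriptions across genes of the same libraries, and the part of fragment length or other length-dependent steps in FPKM was not tested.

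**Figure D5:**
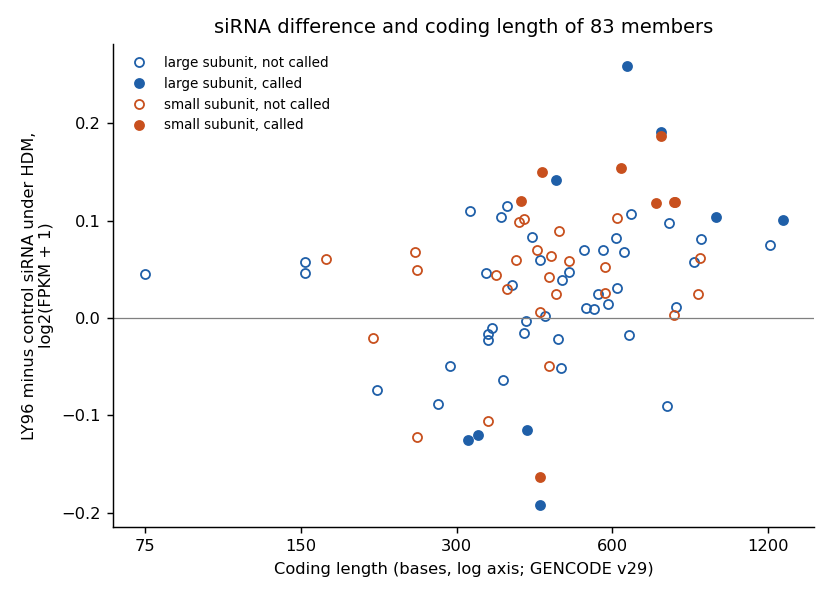
LY96 minus control siRNA difference under HDM, in log2(FPKM + 1), against coding length on a log axis for the 83 members, coloured by subunit, with filled points for called members. The 9 called members of at least 582 bases are all above 0, and the 5 members called lower have a median of 411 bases.

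GC content, taken over the same chosen transcript of each gene, bore little relation to the siRNA difference under HDM (r = -0.0723, rho = -0.0479 across the 83 members). It had r = 0.359 and rho = 0.465 with the HDM difference under LY96 siRNA, and r = 0.101 and rho = 0.0901 with that under control siRNA. Both HDM differences rest on 1 PBS library each.

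Several members have a paralogue, and the deposited values depend on how reads shared between such copies and their many pseudogenes were divided. RPL26L1 and RPL26 have 84.1% identical coding sequence. RPL26L1 was at 6.83% of the RPL26 level in the control siRNA PBS library and 7.06%, 7.28% and 7.27% in the control siRNA HDM libraries. It was at 6.03% and at 6.08%, 5.78% and 6.24% in the LY96 siRNA libraries, so every LY96 siRNA library was below every control siRNA library. RPL26 itself was at 752 ± 19.5 and 783 ± 19.9 FPKM under HDM (log2 0.06 ± 0.03 SE, adjusted p = 0.2). RPL7L1, 55.7% identical to RPL7, likewise went from 6.52%, 6.56% and 6.13% of the RPL7 level to 5.22%, 4.91% and 5.64%, with RPL7L1 itself not called (log2 -0.09, adjusted p = 0.192). RPS27L, a p53 target 77.8% identical to RPS27 in coding sequence, was not called (-0.12, adjusted p = 0.152), nor were RPL22L1 (0.10, adjusted p = 0.178) and RPL39L (0.05, adjusted p = 0.639). Among the abundant partners RPS27 (0.05), RPL22 (0.03), RPL39 (0.06), RPL3 (0.08) and RPL36A (0.11) were not called either.

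Other messages known to carry a TOP tract were also called on the higher side. Of 19 such genes outside the naming pattern, 7 were higher and 0 lower with LY96 siRNA under HDM, against 6.68% higher among all genes tested, with a median of log2 0.10. Under the other 7 scalings 4 to 10 were higher, with 1 lower under member centring and 0 otherwise, and medians of 0.05 to 0.12. Under those scalings 4.33% to 8.57% of all genes were higher. EEF1A1, which delivers aminoacyl-tRNA to the ribosome, went from 1366 ± 35.6 FPKM under control siRNA to 1597 ± 18.0 under LY96 siRNA (mean ± SD of 3; log2 0.23, adjusted p = 9.70e-04). EIF4B (0.19), EEF1D (0.18), EEF1G (0.16), TPT1 (0.16), EIF3L (0.15) and EEF1B2 (0.12) were the others. EEF2 (0.10, adjusted p = 0.0628) and PABPC1 (0.10, adjusted p = 0.0752) were not called. FAU, a ribosomal protein made as a ubiquitin-like fusion, was not called (-0.05, adjusted p = 0.534).

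Genes of the mitochondrial ribosome and of ribosome assembly had calls on the lower side alone in this comparison, under each of the 8 scalings. Of 48 mitochondrial large subunit genes 0 were higher and 7 lower with LY96 siRNA under HDM (median log2 -0.08), against 8.92% lower among all genes tested, and of 29 small subunit genes 0 and 7 (median -0.11). Of 29 ribosome biogenesis genes 0 were higher and 5 lower (median -0.04), namely WDR12, RRN3, NAT10, SBDS and BYSL. Over the scalings, lower calls ranged from 3 to 11, 5 to 11 and 2 to 8 for these 3 lists, with all medians below 0. The share of all genes called lower ranged as well, from 4.76% by upper quartile to 16.4% by member centring. The smallest counts of the 3 lists came by upper quartile. The nucleolar proteins NPM1 (-0.02), NCL (-0.04) and FBL (-0.02) were not called. Of 23 initiation factors 3 were higher, EIF1 (0.43), EIF2S2 (0.38) and EIF5 (0.25), and 2 lower, EIF5B (-0.24) and EIF2S1 (-0.16). Among all genes tested 6.68% were higher and 8.92% lower in this comparison. With HDM over both siRNAs, the TOP-type genes had 0 higher and 1 lower, the non-coding host gene GAS5 (log2 -0.20, adjusted p = 0.00904). In that comparison biogenesis genes had 2 of 29 higher, POLR1A and DDX21, and 0 lower. The shares of all genes tested were 4.86% higher and 3.5% lower, so these few calls are not read as a trait of either list.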

How the data were processed

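RNA of BEAS-2b cells in 8 libraries was deposited as 1 table per library, each with a gene symbol and 1 value. The deposited values were read as FPKM from their properties (not whole, totals that differ), since neither labels nor headers name the unit. The submitters' processing notes name HISAT2 2.2.0 and the build hg38; which program and annotation gave the FPKM values is not given in the sources used here. How it divided reads between paralogues and pseudogenes could change any member's level. Whole reads could not be recovered, so intervals for counting error are left out and depth is unknown. No pair of libraries was identical.

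Groups were taken from the titles. Members and gene lists were chosen with earlier results of these data known, so they give no independent support. Tests used limma 3.58.1 in R 4.3.3 on log2(FPKM + 1), with robust moderation and a mean-variance trend, for genes whose mean in the fitted libraries reached 1 FPKM. The siRNA effect under HDM used 6 libraries, and the HDM contrasts came from 1 model with a mean for each of the 4 groups. Residual degrees of freedom were 4 in each fit, and p-values are two-sided and adjusted over all genes tested (threshold 0.05). The steps were tested on simulated data with added changes far larger than any member difference given here. That test does not bear on the detection of differences as small as those of the members. Named genes were the 5 members that rose most, the 5 that fell most, called members (at most 10 per comparison by p, to which the report adds the remaining called ones), the 3 highest and 3 lowest of each subunit, and a fixed set of stalk, 5S, paralogue and translation genes. Scalings were the total, the total without members, upper quartile, median ratio, an unweighted TMM (trims of 0.3 and 0.05), quantile and the members' median. Other alternatives were the pseudocount, the filter, the moderation, an additive model, a replicate block and leaving out each HDM library. In the additive model the siRNA effect was taken over all 8 libraries, PBS included. A few genes that enter the counts are not reported individually here. Coordinates and coding lengths are from GENCODE v29, and start windows from RefSeq (GRCh38.p14).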

Additional observations from a re-analysis of the deposited data

Results flagged for a closer look

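In 8 members, of which 6 are described, every control siRNA HDM library was below the control siRNA PBS library and every LY96 siRNA HDM library above the LY96 siRNA PBS library. The difference in HDM response (LY96 minus control, log2) was 0.16 for RPL10, 0.11 for RPL12, 0.0829 for RPL27A, 0.33 for RPS10, 0.0643 for RPS15 and 0.23 for RPS29. The interaction test in limma passed for none of these 6, with adjusted p from 0.335 (RPS29) to 0.819 (RPS15). RPS10 had the largest value and a wide spread, at 635 FPKM with PBS and 596, 523 and 595 FPKM with HDM under control siRNA, and 527 and 603, 632 and 549.6 under LY96 siRNA. Each direction hangs on 1 PBS library per siRNA. RPL10, called in the siRNA comparison under HDM, was at 384 and 356 ± 10.1 FPKM under control siRNA and 411 and 426 ± 9.82 under LY96 siRNA (HDM mean ± SD, n = 3).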

How the results depend on the processing

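Of 392 recomputed counts, medians, shares and ratios, 304 stayed within their limit and 88 moved. The limit was 1.5 times for a count and 1 SD or the error between replicates for a value. The 304 include counts that were 0 as reported and stayed at 0, such as members higher with HDM under each scaling. Of 397 recomputed gene calls 285 were kept, 112 lost and 0 reversed. Of the lost calls 53 were lost with 1 library left out and 34 without the low-value filter or without trend and robust moderation. For LY96 siRNA under HDM, higher members numbered 12 as reported and 22 at a common total, 24 at the total without members, 20 by upper quartile, 28 by median ratio, 28 by TMM, 5 by member centring, 1 without the filter and 4 without trend and robust moderation. Lower members numbered 5 as reported and 2, 8, 10, 0 and 1 by upper quartile, quantile, member centring, no filter and no trend. The large subunit median of 0.0366 became 0.0588, 0.0583 and 0.0586 by upper quartile, median ratio and TMM, 0.0145 by quantile and -0.00984 by member centring. It was 0.0117 in the additive model, which takes the siRNA difference over all 8 libraries, PBS included, and so measures another quantity.

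For HDM over both siRNAs, lower members numbered 3 as reported and 12, 15, 14, 11, 11, 5 and 0 by total, total without members, upper quartile, median ratio, TMM, quantile and member centring, 5 at a minimum of 5 FPKM, and 0 without filter or without trend. The large subunit median of -0.0477 became -0.0887 by upper quartile and -0.0111 by member centring. With control siRNA, 0 lower members became 3, 5, 2, 3 and 3 by total, total without members, upper quartile, median ratio and TMM. Of all genes, 0.746%, 0.944%, 0.785%, 0.984% and 0.92% were lower there. At the minimum of 5 FPKM 2 members were lower, and the share of all genes in that fit is not given here. The medians of -0.0708 (large) and -0.0792 (small) became 0.0370 and 0.0287 by member centring, and the large one -0.0391 by quantile. With LY96 siRNA, 0 lower members became 2, 2, 1, 1, 1, 1 and 1 by the 7 scalings, in the order used for HDM over both siRNAs. Between 2.4% and 2.76% of all genes were lower under these scalings. The large subunit median of -0.0223 became -0.0476, -0.0529, -0.0856 and -0.0568 by total, total without members, upper quartile and member centring. The small subunit median of -0.00545 became -0.0698 by upper quartile. For the difference between siRNAs the large median of 0.0733 became 0.0400, 0.0462, 0.0266, 0.0181 and -0.0691 by total, total without members, upper quartile, quantile and member centring, and the small one, 0.0689, became -0.0734 by member centring. Centring on the members removes their shared shift by construction; the cause of the other moves was not tested.

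The large over small ratio became 0.971, 0.958, 1.064 and 0.972 as a ratio of medians and 1.440, 1.447, 1.444 and 1.418 without the 3 highest members of each subunit (control PBS, control HDM, LY96 PBS, LY96 HDM). The share in those groups became 17.7%, 16.9%, 17.9% and 17.5% without the 100 highest other genes in the total, and 15.1%, 15.2% and 14.9% without ribosomal RNA in control PBS, LY96 PBS and LY96 HDM. Leaving out 1 HDM library at a time gave 5 to 17 higher and 1 to 5 lower members for LY96 siRNA under HDM, 0 to 3 lower for HDM over both siRNAs, 0 to 3 lower for HDM with control siRNA (3 without LY96 HDM replicate 1), and 0.0502 to 0.0865 for the large median of the difference between siRNAs. Pairing the HDM libraries by sample number (a replicate block) gave 9 higher and 4 lower. Deviations of same-numbered libraries correlated at r = 0.0485, -0.0165 and -0.0162. Number 1 correlated best with its own number and numbers 2 and 3 did not. The labels do not say what the number stands for, and these values cannot tell whether same-numbered libraries share a culture or batch. No paired analysis was possible for the HDM contrasts because the PBS libraries carry no number. Depth is unknown, so what it limits could not be given.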
